A study of Mus musculus with 12 samples.

Results

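The genes described are 36 genes of cholesterol and fatty acid metabolism, taken by symbol from the count files of mouse dorsal hippocampus. They comprised 8 enzymes of the mevalonate pathway, 11 enzymes from squalene to cholesterol and 5 genes that encode or control the SREBP transcription factors. The others were 6 enzymes of fatty acid synthesis and 6 genes of sterol sensing, transport and efflux. All 36 were among the 24421 genes in the files, and all 36 passed the filter on low counts that left 15622 genes for testing. The lowest count of any member in any library was 199, for Tm7sf2.

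Cells make cholesterol from acetyl-CoA through the mevalonate pathway, squalene and a series of sterol intermediates. When sterols in the endoplasmic reticulum run low, the escort protein SCAP carries SREBP precursors to the Golgi, where proteases release a fragment that activates genes of sterol and fatty acid synthesis, while INSIG proteins hold the complex back when sterols are plentiful. The brain makes its own cholesterol behind the blood-brain barrier: astrocytes supply neurons, and oligodendrocytes need large amounts for myelin.

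RNA was measured by sequencing of polyadenylated RNA in 12 libraries, 3 in each of 4 groups, from male mice of the 129sv/C57BL/6j background aged 4 to 5 months. The groups were Mbnl2 WT and Mbnl2 KO mice, each as house controls or trained. The Mbnl2 product belongs to the muscleblind-like proteins, which bind RNA and control splicing, and the series' title points to context processing and object recognition memory. The training task, its timing and the targeted allele are not given in the sources used here, and each library has its own animal number.

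Total counts ran from 19737929 to 27427076 per library. Mbnl2 itself lay at 315 to 365 CPM (read counts relative to the scaled library size) in the WT libraries and at 454 to 542 CPM in the KO-labelled ones, so its gene-level count was not lower in the KO-labelled libraries and does not check the label. Markers that define hippocampal neurons were present in every library, with summed levels of 332 to 1255 CPM for 8 dentate granule markers, 240 to 755 CPM for 8 CA1 markers and 396 to 804 CPM for 7 CA2 and CA3 markers. Markers of tissue next to the hippocampus also varied: 10 choroid plexus markers summed to 53.9 to 15098 CPM, 8 striatum and septum markers to 48.6 to 798 CPM and 8 thalamus markers to 112 to 507 CPM. In tissue RNA, fewer cells of a type and less RNA per cell cannot be told apart.

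The stretches before the transcription start are shown for the 5 members with the smallest p among the members in the genotype comparison of trained mice. They were searched for letters through which SREBP and its partners are known to act, and not all 5 hold a sterol response element. Promoters came from RefSeq on GRCm38.p6 (mm10), in which 28 of the 36 members were found by symbol. Each run below gives the 250 bases before the start on the gene's own strand, 5′ to 3′, with matches to the searched motifs in capitals. Hmgcs1 spans chr13:119690101-119690350 (plus strand), Srebf2 chr15:82147019-82147268 (plus), Acat2 chr17:12960726-12960975 (minus), Pmvk chr3:89454291-89454540 (plus, the first of its starts in the table) and Msmo1 chr8:64733579-64733828 (minus).
Hmgcs1: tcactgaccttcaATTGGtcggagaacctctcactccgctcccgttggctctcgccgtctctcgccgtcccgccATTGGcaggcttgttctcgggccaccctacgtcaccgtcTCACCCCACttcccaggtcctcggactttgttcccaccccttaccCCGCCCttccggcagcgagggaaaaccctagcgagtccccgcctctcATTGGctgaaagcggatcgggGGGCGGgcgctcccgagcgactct
Srebf2: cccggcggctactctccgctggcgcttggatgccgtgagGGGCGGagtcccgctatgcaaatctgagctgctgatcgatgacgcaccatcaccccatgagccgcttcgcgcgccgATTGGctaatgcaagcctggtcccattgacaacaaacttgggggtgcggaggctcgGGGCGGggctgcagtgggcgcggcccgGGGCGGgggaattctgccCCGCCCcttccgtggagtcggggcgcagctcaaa
Acat2: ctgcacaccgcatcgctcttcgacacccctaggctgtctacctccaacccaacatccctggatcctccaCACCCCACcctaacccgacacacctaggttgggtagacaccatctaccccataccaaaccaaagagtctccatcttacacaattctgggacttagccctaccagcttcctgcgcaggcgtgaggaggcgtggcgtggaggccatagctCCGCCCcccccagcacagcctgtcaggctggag
Pmvk: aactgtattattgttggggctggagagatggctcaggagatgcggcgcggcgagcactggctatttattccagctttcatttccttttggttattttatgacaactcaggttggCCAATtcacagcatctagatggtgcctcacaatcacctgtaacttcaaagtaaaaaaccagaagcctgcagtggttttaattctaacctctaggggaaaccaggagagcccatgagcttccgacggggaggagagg
Msmo1: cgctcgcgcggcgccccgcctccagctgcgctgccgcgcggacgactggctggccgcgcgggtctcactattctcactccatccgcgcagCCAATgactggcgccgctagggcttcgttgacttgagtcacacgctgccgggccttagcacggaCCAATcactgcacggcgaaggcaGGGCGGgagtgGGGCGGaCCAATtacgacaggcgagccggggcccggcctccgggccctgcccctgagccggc
The 5 motifs were searched on both strands over windows of 300 bases, from 250 before to 50 after the start: the sterol response element TCACNCCAC and its core CACCCCAC, which overlap by design, the E-box TCACGTGA, the NF-Y box CCAAT and the GC box GGGCGG. Hmgcs1 holds TCACCCCAC at position -137 from the start, with NF-Y boxes at -237, -176 and -45. Acat2 holds the core alone, at -181. Srebf2 has 1 NF-Y box, at -135, and 4 GC boxes within the run shown. Srebf2, Pmvk and Msmo1 hold neither form of the sterol response element as exact letters. The Pmvk run has 1 NF-Y box, at -136, as its only match.

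Among the 28 members with a promoter in the table, 22 (78.6%) held at least 1 NF-Y box, against 42.2% of the 11737 tested genes found there and 41.1% of all 27025 genes in the table. NF-Y is a trimeric factor that binds beside SREBP at many sterol genes. The share was 93.8% for the sterol synthesis enzymes, 15 of 16, and Acat2 was the exception. In all these shares a gene with several starts counted if any of its windows held the motif. The second start of Pmvk, for example, held 0 matches. GC boxes, the sites of Sp1-type factors, stood in 78.6% of the members and 66.1% of the tested genes. Either form of the sterol response element was found in 7.14% of the members (Hmgcs1 and Acat2) and 4.54% of the tested genes. Only exact letters counted, so near forms, such as TCACCCCAT in the Srebf2 run, were left out of these shares. The E-box form TCACGTGA was found in 0 of 28 members and in 1.99% of the tested genes. The shorter E-box CACGTG was not searched, and it stands, for example, before Insig1 and Hsd17b7. A match here is a match of letters and not a measured binding site.

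Per kilobase of exon, the desaturases stood highest. Scd2, the main stearoyl-CoA desaturase of brain, had 364.8 ± 63.2 CPM per kb (SD, n = 12 libraries), and its neighbour on chromosome 19, Scd1, had 63.4 ± 19.3. Hmgcs1, which makes HMG-CoA at the entry to the pathway, followed at 61.8 ± 7.20 CPM per kb, a level that did not differ from that of Scd1 beyond their spread. Srebf2 (43.1 ± 4.62) and Fasn, fatty acid synthase (40.2 ± 3.17), also overlapped within 1 SD, and Acly, which makes cytosolic acetyl-CoA, came next at 33.9 ± 1.25 CPM per kb.

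**Figure D1:**
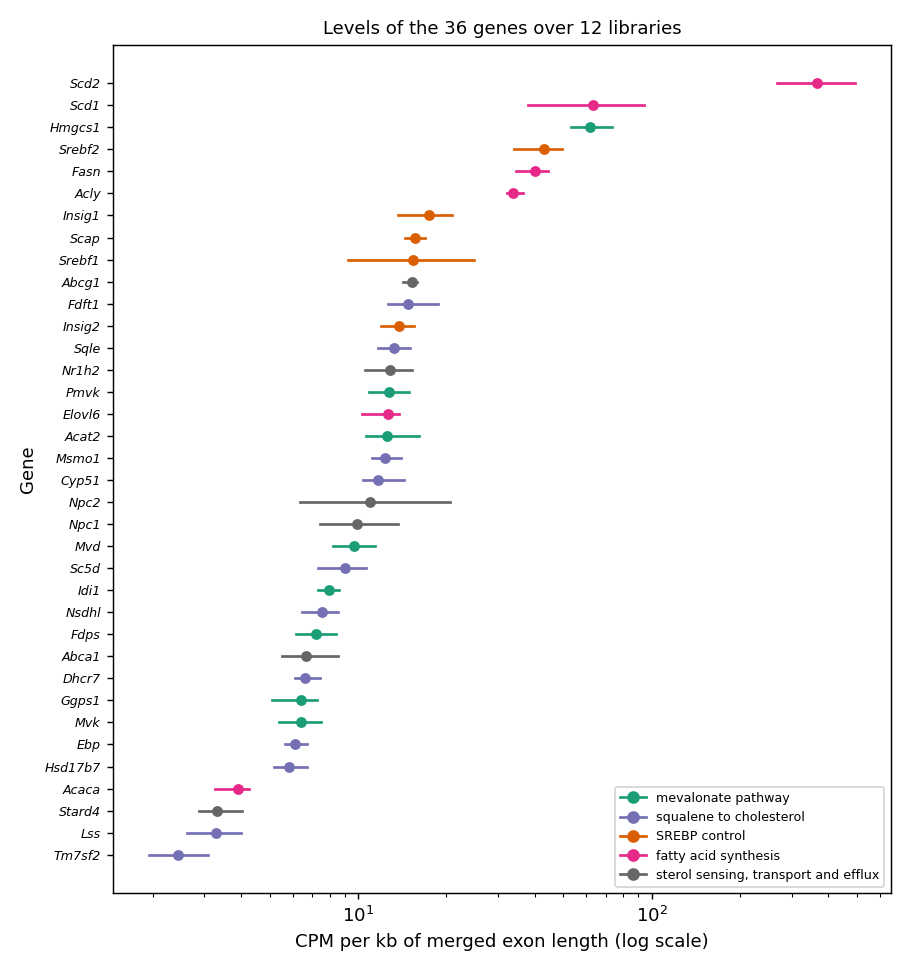
Level of each of the 36 genes in CPM per kb of merged exon length (log axis); points are means and lines run from the lowest to the highest of 12 libraries, coloured by role. Scd2 stands at 364.8 CPM per kb, above Scd1 and Hmgcs1, and Lss (3.28) and Tm7sf2 (2.43) stand lowest.

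Among the enzymes from squalene to cholesterol, Fdft1 (squalene synthase) had the highest mean, 14.9 CPM per kb. Lss (lanosterol synthase, 3.28) and Tm7sf2, a sterol C14 reductase (2.43), were the lowest. Mevalonate enzymes other than Hmgcs1 lay within that span, from 6.37 for Mvk to 12.7 for Pmvk. The length of a gene model sets this scale, and some models share exon bases with other genes: 26.7% of the exon bases of Fdps overlap Gm43738 on the same strand, 18.3% of those of Fdft1 overlap Ctsb on the opposite strand, and 12.1% of those of Hmgcs1 overlap the antisense gene Gm48342. Whether the authors' counting used strand is not stated, so reads from such partners cannot be told apart. Scd1 and Scd2 share 145 stretches of 50 bases (2.97% of those of Scd1), so reads there are uncertain between them.

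Spread over the 12 libraries differed widely between members. Acly had a coefficient of variation of 3.68% and Abcg1, a sterol exporter, 3.72%. Npc2, which hands cholesterol to NPC1 in the lysosome, had 34.7%, Srebf1 30.8% and Scd1 30.5%. The median over the 36 members was 10.2%, against 10.8% for the 9886 tested genes with a mean CPM at or above that of the lowest member.

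In the KO-labelled libraries, the sterol synthesis enzymes and Srebf2 tended to lie slightly above the WT libraries. Not every KO-labelled library shared this. The enzymes' median log2 deviation from their means was -0.08 in KO house control replicate 1, inside the WT range of -0.13 to -0.03. It was 0 in KO trained replicate 1 and 0.09 to 0.12 in the other KO-labelled libraries. Averaged over both treatments, 28 of 36 members had a positive log2 fold change (KO minus WT), with a median of 0.09, and 18 of the 19 sterol synthesis enzymes did, with a median of 0.13. Over all 15622 genes tested, 48.0% were positive and the median was -0.01. No member passed an adjusted p of 0.05 in this comparison (0 of 36 by the quasi-likelihood test of edgeR, Benjamini-Hochberg adjusted over all genes), where 0.576% of all genes did. At an unadjusted p under 0.05, 8 members were higher and 0 lower, beside 8.54% of all genes higher and 5.89% lower. DESeq2 on the same counts called 2 members, Srebf2 and Hmgcs1, both higher, where it called 5.04% of genes in either direction.

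Several marker lists leaned one way in the same comparison, with 0 markers called by edgeR and 0 whose groups of 6 did not overlap in any of the lists given here. At an unadjusted p under 0.05, 5 CA1 markers were higher, and 2 dentate, 3 endothelial and mural, 1 leptomeningeal and 1 thalamus marker lower. CA1 pyramidal markers had a median of 0.81 with 8 of 8 positive, and their summed level ran from 240 to 512 CPM in WT house controls, 413 to 743 in KO house controls, 293 to 563 in WT trained and 696 to 755 in KO trained libraries. Dentate granule markers had a median of -0.57 with 8 of 8 negative, at 544 to 1157, 332 to 908, 689 to 1255 and 389 to 773 CPM in the same order of groups. None of these markers averaged 0, the lowest being Spink8 at 8.36 CPM and Tdo2 at 6.96 CPM. For choroid plexus markers the median was -1.38, 10 of 10 being negative, at 113 to 15098, 79.8 to 2657, 53.9 to 7857 and 75.4 to 4740.4 CPM, and striatum and septum markers a median of 1.18 with 8 of 8 positive, at 63.1 to 435, 58.6 to 567, 54.3 to 56.8 and 48.6 to 798 CPM. Medians were also negative for leptomeningeal fibroblast markers (-0.89, 10 of 10 negative), thalamus markers (-0.56, 7 of 8) and endothelial and mural markers (-0.20, 9 of 10). The part of these marker differences in the sterol gene differences was not tested.

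Srebf2 encodes SREBP-2, the form of SREBP that acts mainly on sterol genes. In house controls it lay at 295, 245 and 266 CPM in the 3 WT libraries and at 344, 325 and 309 CPM in the KO-labelled ones. In trained mice the WT libraries had 309, 292 and 299 CPM and the KO-labelled libraries 356, 327 and 348 CPM. The genotypes did not overlap within either treatment, and across treatments the lowest KO-labelled library (309.2 CPM) stood just above the highest WT library (308.7 CPM). Srebf2 was the 1 member whose groups of 6 did not overlap, a pattern seen upwards in 1.06% and downwards in 0.717% of all genes.

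The mean genotype difference of Srebf2 was 0.24 on the log2 scale (SE 0.06, 1.18-fold), from 284 ± 24.0 to 335 ± 17.5 CPM (SD, n = 6 each; edgeR adjusted p = 0.101, DESeq2 adjusted p = 0.00177, both Benjamini-Hochberg over all genes). In house controls alone the difference was 0.28 (SE 0.08, edgeR adjusted p = 0.329, DESeq2 adjusted p = 0.044), and in trained mice 0.20 (SE 0.08, edgeR adjusted p = 0.755, DESeq2 adjusted p = 0.36). The authors' deposited tables give Srebf2 a log2 fold change of 0.28 in house controls (adjusted p = 0.33) and 0.19 in trained mice (adjusted p = 0.39) (called genes there make up 0.558% and 0.834% of those with an adjusted p). The authors' deposited tables call 0 of the 36 members in any of the 4 comparisons. Without WT house control replicate 1, edgeR also called Srebf2 over both treatments (0.27, adjusted p = 0.0379), in a fit that called 203 of 15827 genes higher and 65 lower, against 60 and 30 of 15622 over all libraries. Leaving out any other single library led to 0 edgeR calls among the members in this comparison.

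**Figure D2:**
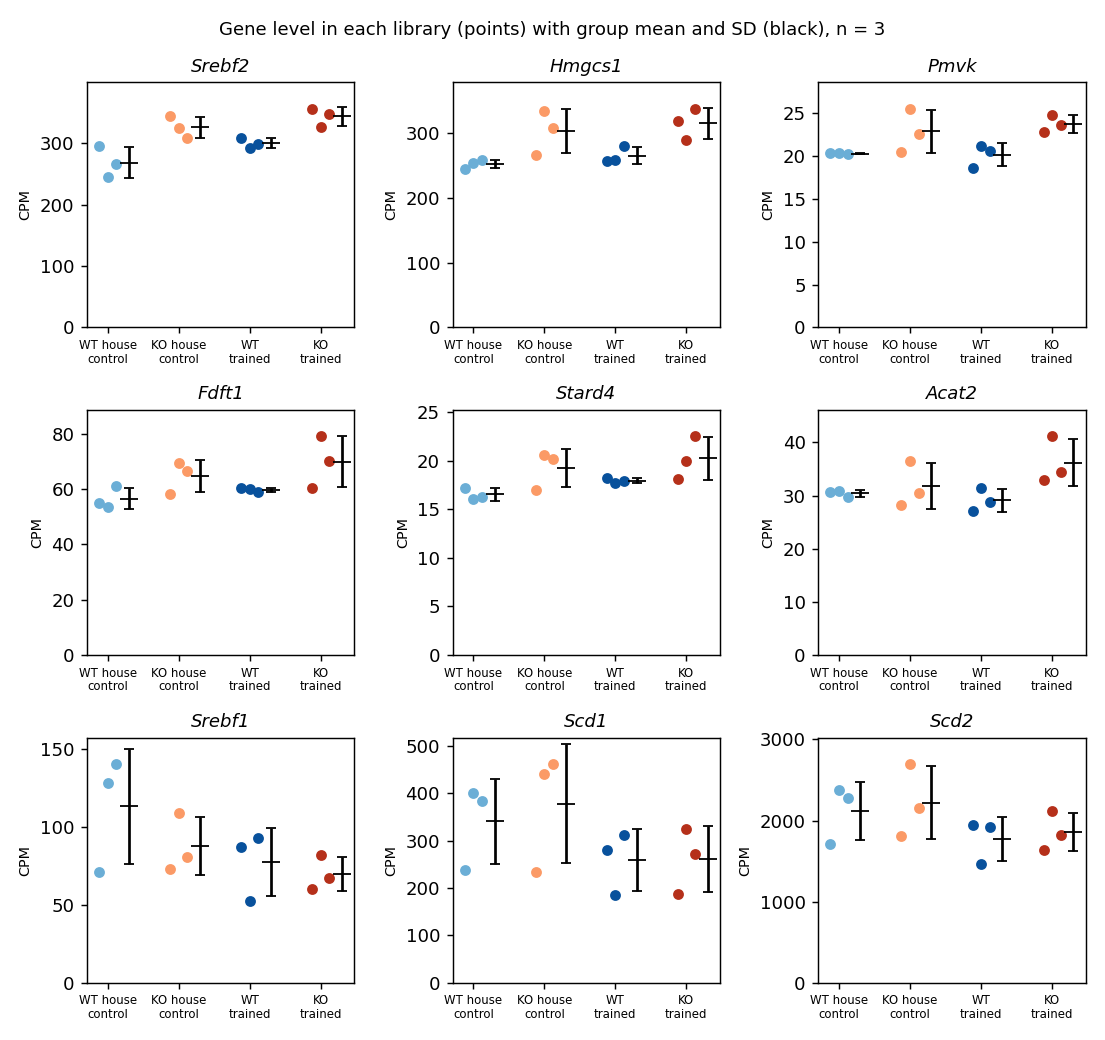
CPM of 9 genes in each library (points, 3 per group) with the group mean and SD in black; every vertical axis starts at 0. For Srebf2 the KO-labelled points (309.2 to 356 CPM) lie above the WT points (245 to 308.7 CPM) in both treatments, while the points of Srebf1, Scd1 and Scd2 spread widely within groups.

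Within the mevalonate pathway, 8 of 8 members were at or above 0 over both treatments, with a median of 0.16. Hmgcs1 lay at 245, 254 and 258 CPM in WT house controls and at 266, 334 and 309 CPM in KO house controls. After training it lay at 257, 259 and 280 CPM in WT and at 318, 289 and 338 CPM in KO-labelled libraries. Neither treatment showed overlap, but KO house control replicate 1 (266 CPM) lay below the highest WT trained library. The mean difference was 0.26 (SE 0.07, 1.19-fold), from 259 ± 11.7 to 309 ± 27.5 CPM (SD, n = 6 each; edgeR adjusted p = 0.116, DESeq2 adjusted p = 0.00753).

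Pmvk, phosphomevalonate kinase, had 20.4, 20.4 and 20.2 CPM in WT house controls and 20.5, 25.6 and 22.6 CPM in KO house controls. In trained mice it had 18.6, 21.2 and 20.6 CPM in WT and 22.8, 24.8 and 23.7 CPM in KO-labelled libraries. The genotypes separated in both treatments, by a narrow margin in house controls, and the mean difference was 0.21 (SE 0.06, edgeR adjusted p = 0.174). Acat2, which makes acetoacetyl-CoA in the cytosol, had 30.6, 30.9 and 29.7 CPM in WT and 28.3, 36.5 and 30.5 CPM in KO house controls, which overlapped. Trained WT libraries had 27.2, 31.4 and 28.8 CPM of Acat2 and trained KO-labelled libraries 32.9, 41.2 and 34.4 CPM. That difference was 0.31 (SE 0.11, edgeR adjusted p = 0.669), against 0.06 (SE 0.11) in house controls, and the training effect in KO minus that in WT was 0.25 (SE 0.16, edgeR adjusted p = 1).

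The other mevalonate genes had mean genotype differences of 0.18 (SE 0.08) for Mvd, mevalonate diphosphate decarboxylase, 0.14 (SE 0.07) for the farnesyl diphosphate synthase gene Fdps, 0.13 (SE 0.08) for mevalonate kinase (Mvk), 0.05 (SE 0.06) for the isomerase gene Idi1 and 0 (SE 0.08) for Ggps1, which leads to protein prenylation rather than to sterols. Of the 8, Hmgcs1, Pmvk and Acat2 had an unadjusted p under 0.05.

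From squalene to cholesterol, 10 of 11 members were positive over both treatments (median 0.11). Fdft1 led, with 55.0, 53.7 and 61.0 CPM in WT house controls and 58.4, 69.5 and 66.5 CPM in KO house controls, which overlapped. After training it had 60.3, 59.9 and 58.9 CPM in WT and 60.4, 79.1 and 70.3 CPM in KO-labelled libraries, where the lowest KO-labelled library stood just above the highest WT one. Its mean difference was 0.21 (SE 0.07, edgeR adjusted p = 0.21). Msmo1, the sterol C4 methyl oxidase, had 68.5, 71.6 and 77.0 CPM in WT house controls and 70.2, 81.3 and 77.9 in KO house controls, again with overlap. Trained WT libraries had 69.1, 72.3 and 75.0 CPM of Msmo1 and trained KO-labelled libraries 77.0, 86.3 and 86.4 CPM, without overlap (mean difference 0.14, SE 0.06, edgeR adjusted p = 0.271).

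Tm7sf2 had the widest error of these genes (0.22, SE 0.12). Positive differences were also measured for Cyp51, lanosterol demethylase (0.13, SE 0.07), Lss (0.13, SE 0.09), Sqle, squalene epoxidase (0.11, SE 0.06) and Hsd17b7, a sterol ketoreductase (0.11, SE 0.06). Nsdhl lay at 0.06, Dhcr7 at 0.05, Sc5d at 0.03 and Ebp at -0.04, each with an SE of at least 0.04.

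The SREBP control genes differed in sign. Scap lay at 0.09 (SE 0.04, edgeR adjusted p = 0.351). Srebf1, which encodes SREBP-1, had 71.2, 128 and 140.3 CPM in WT house controls and 73.1, 109 and 80.9 CPM in KO house controls. Trained WT libraries had 86.8, 52.2 and 92.8 CPM and trained KO-labelled libraries 60.2, 81.6 and 66.9 CPM, so values of both genotypes overlapped in both treatments. Its mean genotype difference was -0.26 (SE 0.20, edgeR adjusted p = 0.58) beside 0.24 for its paralog Srebf2.

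Insig1, itself a sterol-responsive gene, had 54.7, 63.0 and 61.3 CPM in WT and 45.0, 64.6 and 54.1 CPM in KO house controls. After training it had 45.2, 42.2 and 55.8 CPM in WT and 46.3, 57.4 and 56.7 CPM in KO-labelled libraries. The genotypes overlapped in both treatments, and the mean difference was 0.02 (SE 0.10). Insig2 had 49.9, 44.1 and 49.6 CPM in WT and 48.2, 41.5 and 45.0 CPM in KO house controls. Its trained libraries had 46.7, 53.8 and 49.3 CPM in WT and 50.7, 44.5 and 50.8 CPM in KO, with overlap and a mean difference of -0.07 (SE 0.06).

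Of the fatty acid synthesis genes, 6 of 6 were positive over both treatments, with a median of 0.07. Fasn had 435, 393 and 377 CPM in WT house controls and 449, 472 and 455 CPM in KO house controls, without overlap. In trained mice it had 461, 432 and 414 CPM in WT and 488, 426 and 485 CPM in KO-labelled libraries, and these overlapped (mean difference 0.14, SE 0.06, edgeR adjusted p = 0.307). Acaca, acetyl-CoA carboxylase, separated in house controls, with 64.7, 55.8 and 61.4 CPM in WT and 66.3, 72.9 and 68.0 CPM in KO (0.19, SE 0.07, edgeR adjusted p = 0.396). In trained mice it did not, with 70.8, 66.6 and 66.7 CPM in WT and 70.2, 65.9 and 69.9 CPM in KO (0.01, SE 0.07). The difference between these genotype effects had an edgeR adjusted p of 1.

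Scd1 and Scd2 spread so widely within groups that a small genotype difference was not detectable with 3 libraries. Scd1 had 237, 401 and 383 CPM in WT and 233, 439.9 and 462 CPM in KO house controls. Scd2 had 1713, 2370.5 and 2275 CPM in WT and 1813, 2699.5 and 2152 CPM in KO house controls. Within each group the lowest library of one gene was also the lowest of the other. The mean genotype differences were 0.08 (SE 0.22) for Scd1 and 0.07 (SE 0.13) for Scd2. Acly (0.01, SE 0.05) and the elongase gene Elovl6 (0.04, SE 0.07) lay near 0.

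Of the transport genes, 5 of 6 were negative over both treatments and only Stard4 was positive, but the median was near 0 (-0.03). Over all genes tested, 48.0% were positive. With the 3 libraries richest in thalamus markers left out, 33 of 36 members were positive, so not all of these negative signs held. Stard4, a carrier of sterol between membranes, had 17.2, 16.1 and 16.3 CPM in WT house controls and 17.0, 20.5 and 20.2 CPM in KO house controls. After training it had 18.2, 17.7 and 17.9 CPM in WT and 18.1, 20.01 and 22.5 CPM in KO-labelled libraries. In each treatment 2 of the 3 KO-labelled libraries lay above the WT libraries and the third lay among them (mean difference 0.20, SE 0.07, edgeR adjusted p = 0.227). The differences were -0.32 (SE 0.23) for Npc2, -0.05 for Npc1, the lysosomal cholesterol exporter, and Abca1, an efflux pump, -0.02 for Abcg1 and -0.01 for Nr1h2, the sterol-sensing receptor LXR-beta.

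**Figure D3:**
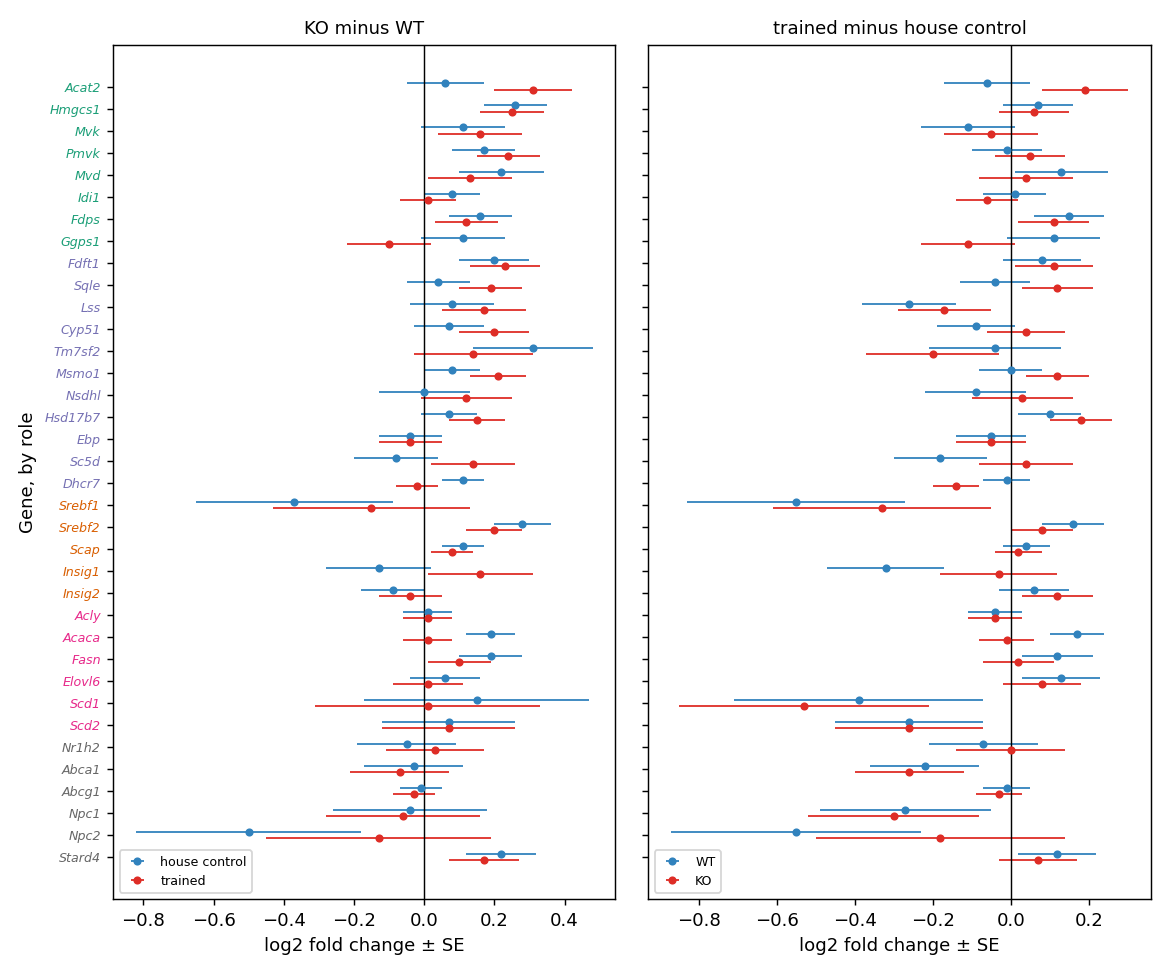
Log2 fold change with its SE for the 36 genes, in the order and colours of their roles: KO minus WT in house control (blue) and trained mice (red) at left, and trained minus house control in WT (blue) and KO-labelled mice (red) at right. At left, most sterol enzymes and Srebf2 lie right of 0 in both treatments. At right, Srebf1, Scd1, Scd2, Abca1, Npc1 and Npc2 lie left of 0 in both genotypes.

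The house control and trained comparisons of genotype share no library, so their signs can be set side by side. In house controls 26 of 36 members were positive (median 0.08, all genes 49.8% positive) and in trained mice 27 of 36 (median 0.11, all genes 47.6%). Both comparisons were positive for 24 of 36 members (66.7%) and for 15 of 19 sterol enzymes (78.9%), against 31.5% of all genes tested. By role, 7 of 8 mevalonate genes, 8 of 11 genes from squalene to cholesterol, 6 of 6 fatty acid genes, 2 of 5 SREBP control genes and 1 of 6 transport genes were positive in both.

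In house controls edgeR called 0 members, beside 0.0128% of all genes, and 5 members were higher and 0 lower at an unadjusted p under 0.05 (6.11% of all genes higher and 4.56% lower). DESeq2 called 1 member there, Srebf2, higher, beside 1.39% of genes in either direction. Groups did not overlap upwards for 7 members, beside 6.94% of all genes (6.09% downwards): Hmgcs1, Pmvk, Mvd, Dhcr7, Srebf2, Acaca and Fasn. In trained mice edgeR again called 0 members (0.0128% of all genes) and DESeq2 0 (0.752%). At an unadjusted p under 0.05, 6 members were higher and 0 lower, beside 3.74% and 2.71% of all genes. There 8 members did not overlap upwards, beside 7.61% of all genes (6.38% downwards), and these were Acat2, Hmgcs1, Pmvk, Fdft1, Sqle, Cyp51, Msmo1 and Srebf2. Hmgcs1, Pmvk and Srebf2 stood in both sets, and 0 members separated downwards in either.

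The signs were also counted without the libraries richest in transcripts of neighbouring regions. With the 3 richest in thalamus markers left out (replicates 2 and 3 of the WT and 3 of the KO house controls, so that 1 WT house control remains), 33 of 36 members and 18 of 19 sterol enzymes were positive over both treatments, with Srebf2 at 0.19 and Hmgcs1 at 0.27. Without the 3 richest in striatum and septum markers (KO replicate 2 of both treatments and WT house control replicate 3), 25 of 36 members and 17 of 19 sterol enzymes were positive, with both genes at 0.26. EdgeR called 0 members in both fits, and few genes at all: 1 higher and 0 lower of 16018 in the first, and 2 higher and 1 lower of 15630 in the second. The animal numbers in the titles fall into 2 ranges, and within the first (8 libraries, 2 per group) 30 of 36 members and 17 of 19 sterol enzymes were positive, with Srebf2 and Hmgcs1 both at 0.25 (edgeR adjusted p = 0.622 and 0.633). The second range has 1 library in each group, too few for a test.

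Training brought no such lean. In WT mice 14 of 36 members were positive (trained minus house control, median -0.02) and in KO-labelled mice 19 of 36 (median 0.01), and edgeR and DESeq2 called 0 members in either. The authors' deposited tables also call 0, where they call 0.117% of genes in WT and 0.0716% in KO mice. At an unadjusted p under 0.05, 1 member was higher in WT, Acaca, and 1 in KO-labelled mice, Hsd17b7, and 0 were lower. Of all genes, 4.78% were higher and 5.04% lower by that measure in WT, and 0.973% and 2.04% in KO-labelled mice. EdgeR called 0% of all genes in both comparisons, and DESeq2 0.0734% and 0.0449%. Groups did not overlap upwards for Acaca and Stard4 and downwards for Mvk in WT (7.01% and 7.8% of all genes), and upwards for Hsd17b7 and downwards for Dhcr7 in KO-labelled mice (3.34% and 4.54%).

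Averaged over the genotypes, 4 members had an unadjusted p under 0.05, 1 higher and 3 lower, beside 4.57% and 6.59% of all genes. EdgeR called 0 (0% of all genes) and DESeq2 0 (0.483%). Hsd17b7 lay higher after training, at 27.0, 31.3 and 30.3 CPM against 29.3, 27.0 and 26.4 CPM in WT, with overlap. In KO-labelled mice it had 33.0, 30.9 and 34.2 CPM after training against 29.5, 29.6 and 27.8 CPM, without overlap. Its mean difference was 0.14 (SE 0.06, edgeR adjusted p = 0.43). Lss lay lower, at 29.1, 28.1 and 35.3 CPM in trained WT against 32.8, 42.3 and 35.5 CPM in WT house controls. Its KO-labelled libraries had 31.7, 36.9 and 35.4 CPM after training against 35.8, 43.0 and 38.5 CPM, and both genotypes overlapped (mean difference -0.22, SE 0.09, edgeR adjusted p = 0.43).

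Abca1 had 65.8, 74.5 and 87.0 CPM in WT and 62.9, 70.8 and 88.8 CPM in KO house controls. After training it had 65.5, 58.6 and 70.6 CPM in WT and 64.6, 56.9 and 64.2 CPM in KO. The groups overlapped, and replicates 2 and 3 of both house control groups stood above every trained library, KO replicate 2 only just (mean difference -0.24, SE 0.10, edgeR adjusted p = 0.433). Dhcr7, the last reductase before cholesterol, had 38.73, 43.3 and 41.0 CPM in KO house controls and 37.5, 35.6 and 38.72 CPM in trained KO-labelled mice, just apart (-0.14, SE 0.06, edgeR adjusted p = 1). In WT its levels were 38.4, 37.9 and 37.4 CPM in house controls and 38.4, 38.0 and 36.7 CPM after training, with overlap.

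Several genes with wide spread had negative mean training differences, none of them called. Srebf1 had a mean training difference of -0.44 (SE 0.20, edgeR adjusted p = 0.445), from 100.4 ± 29.7 to 73.4 ± 16.0 CPM (SD, n = 6 each). Scd1 had 281, 185 and 312 CPM in trained WT and 187, 324 and 273 CPM in trained KO-labelled libraries, for a mean difference of -0.46 (SE 0.22, edgeR adjusted p = 0.447). Scd2 had 1942.5, 1465 and 1917 CPM in trained WT and 1642, 2114 and 1818 CPM in trained KO-labelled libraries (mean difference -0.26, SE 0.13, edgeR adjusted p = 0.457). Values of house control and trained libraries overlapped for all 3 genes in both genotypes. Npc2 had a mean difference of -0.36 (SE 0.23, edgeR adjusted p = 0.507) and Npc1 of -0.28 (SE 0.16, edgeR adjusted p = 0.475), also with overlap. Insig1 in WT had -0.32 (SE 0.15, edgeR adjusted p = 0.502) and -0.03 (SE 0.15) in KO-labelled mice. The interaction, the training effect in KO minus that in WT, was called for 0 of 36 members by edgeR and DESeq2 (0% of all genes by both), with 0 at an unadjusted p under 0.05, where 1.5% of all genes had one.

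Oligodendrocyte markers had the same sign in the training comparison. All 12 markers were negative with training in WT (median -0.66) and all 12 in KO-labelled mice (median -0.54), with 0 called. Their summed level ran from 3545 to 13837 CPM in WT house controls, 6052 to 15206 CPM in KO house controls, 3020.2 to 8837 CPM in WT trained and 4074 to 9797 CPM in KO trained libraries. The lowest of the markers, Aspa, averaged 21.2 CPM. Over genotype the same markers had a median of 0. Astrocyte markers were also negative with training in 10 of 10 cases in both genotypes (medians -0.24 and -0.25), and thalamus markers in 8 of 8 (medians -0.84 and -0.70). Without the 3 thalamus-rich libraries, all of them house controls, mean training differences lay nearer 0. They were -0.13 for Srebf1 and Lss, -0.11 for Scd1 and Scd2, -0.06 for Abca1 and 0.08 for Hsd17b7. In WT the house controls left out had 128 and 140 CPM of Srebf1, against 71.2 CPM in the library kept. This fit therefore cannot separate the markers from the loss of high house control values. In that fit Srebf1 had a training difference of 0.12 in WT and a mean genotype difference of 0.10, both opposite in sign to those over all libraries. The part of these markers in the training differences was not tested.

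Across the 12 libraries, 6 members followed an oligodendrocyte score, the mean log2 CPM of the 12 markers, by Pearson's r. These were Npc1 (r = 0.96, Spearman's rho = 0.95), Scd2 (0.95 and 0.96), Srebf1 (0.91 and 0.90), Scd1 (0.89 and 0.87), Abcg1 (0.87 and 0.86) and Npc2 (0.83 and 0.86). Their permutation p (two-sided, 100000 resamples) ranged from 1e-05, the smallest such a test can give, to 0.00067 for r, and the Benjamini-Hochberg adjusted p from 0.00144 to 0.0161 over 144 relations (36 members with 4 marker lists). For rho the permutation p ranged from 2e-05 to 0.00075 and the adjusted p from 0.00216 to 0.018. Astrocyte, microglia and leptomeningeal fibroblast scores gave 0 members past an adjusted permutation p of 0.05. Relations to the choroid plexus and thalamus scores were not tested, and these scores also varied between libraries. Npc2 was highest (112 CPM) in WT house control replicate 3, which had the highest choroid plexus (7.74) and thalamus (5.6) scores. The 6 relations are therefore not shown to be particular to oligodendrocyte markers.

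Each of the 6 relations kept its size without the 2 libraries farthest from the median score (r from 0.80 to 0.97, n = 10), within the first range of animal numbers (r from 0.85 to 0.97, n = 8) and as deviations from the 4 group means (r from 0.87 to 0.99). Npc1 had 86.8, 141 and 148 CPM in WT and 103, 155 and 108 CPM in KO house controls, and 109, 86.1 and 117 CPM in WT and 84.2, 112 and 102 CPM in KO trained libraries. Its 155 CPM came from KO house control replicate 2, the library with the highest score (8.77), and its 86.1 CPM from WT trained replicate 2, the library with the lowest (6.36). All 12 points share library and depth with the score.

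Of the 19 sterol enzymes, 0 passed an adjusted permutation p of 0.05 with this score, and their r ran from -0.52 for Hsd17b7 to 0.76 for Lss (permutation p = 0.0846 and 0.00387, adjusted p = 0.508 and 0.0697). Hmgcs1 had r = 0.16 (permutation p = 0.62), Fdft1 0.26 (permutation p = 0.421), Sqle 0.44 (permutation p = 0.154) and Nsdhl 0.60 (permutation p = 0.0418, adjusted p = 0.317). As deviations from the group means some were closer to the score, with r = 0.67 for Sqle and Msmo1, 0.63 for Nsdhl, 0.55 for Fdft1 and 0.40 for Hmgcs1. The difference between these genes and the 6 above was not tested. Srebf2 had r = -0.37 (permutation p = 0.243) and -0.74 without the 2 farthest libraries. Insig1 also leaned towards it (r = 0.79, adjusted permutation p = 0.0697; rho = 0.85, adjusted permutation p = 0.0216), and its paralog Insig2 ran opposite (r = -0.75, rho = -0.79, adjusted permutation p = 0.0834 and 0.0563).

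**Figure D4:**
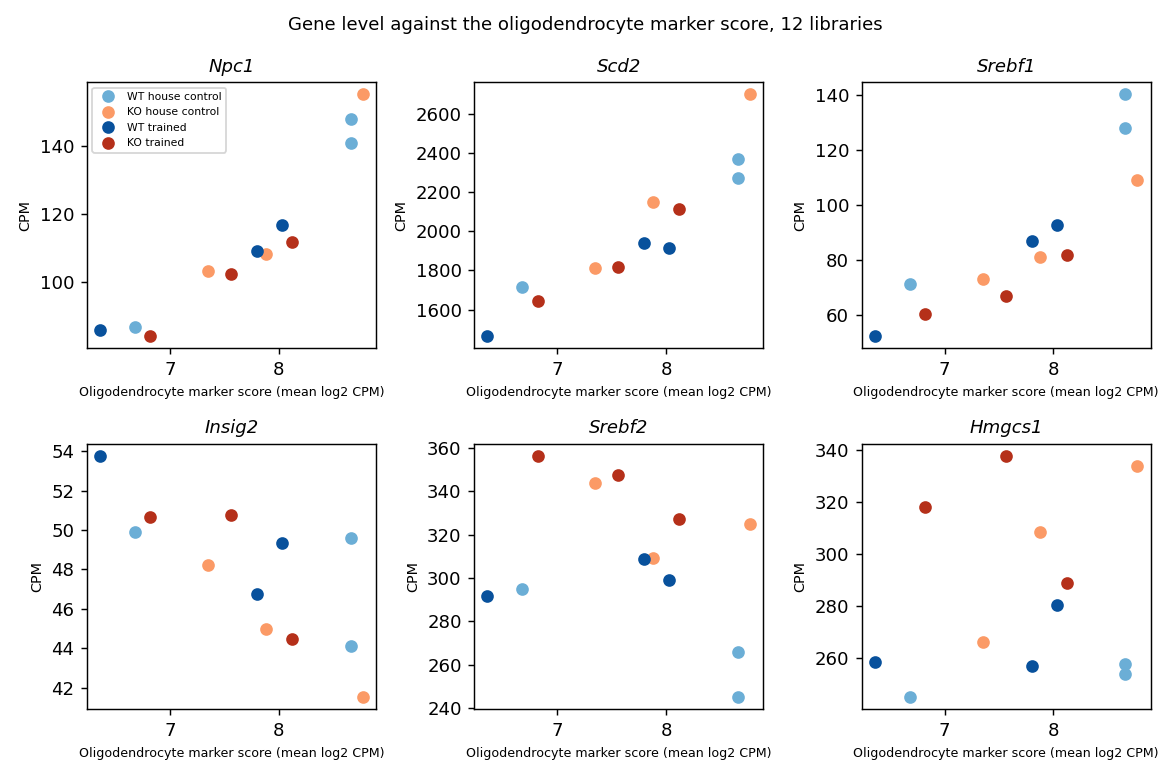
CPM of 6 genes against the oligodendrocyte marker score (mean log2 CPM of 12 markers), 1 point per library, coloured by group; vertical axes do not start at 0. Npc1, Scd2 and Srebf1 climb with the score (r = 0.96, 0.95 and 0.91), Insig2 runs opposite (r = -0.75), and Srebf2 and Hmgcs1 do not climb with it (r = -0.37 and 0.16).

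**Figure D5:**
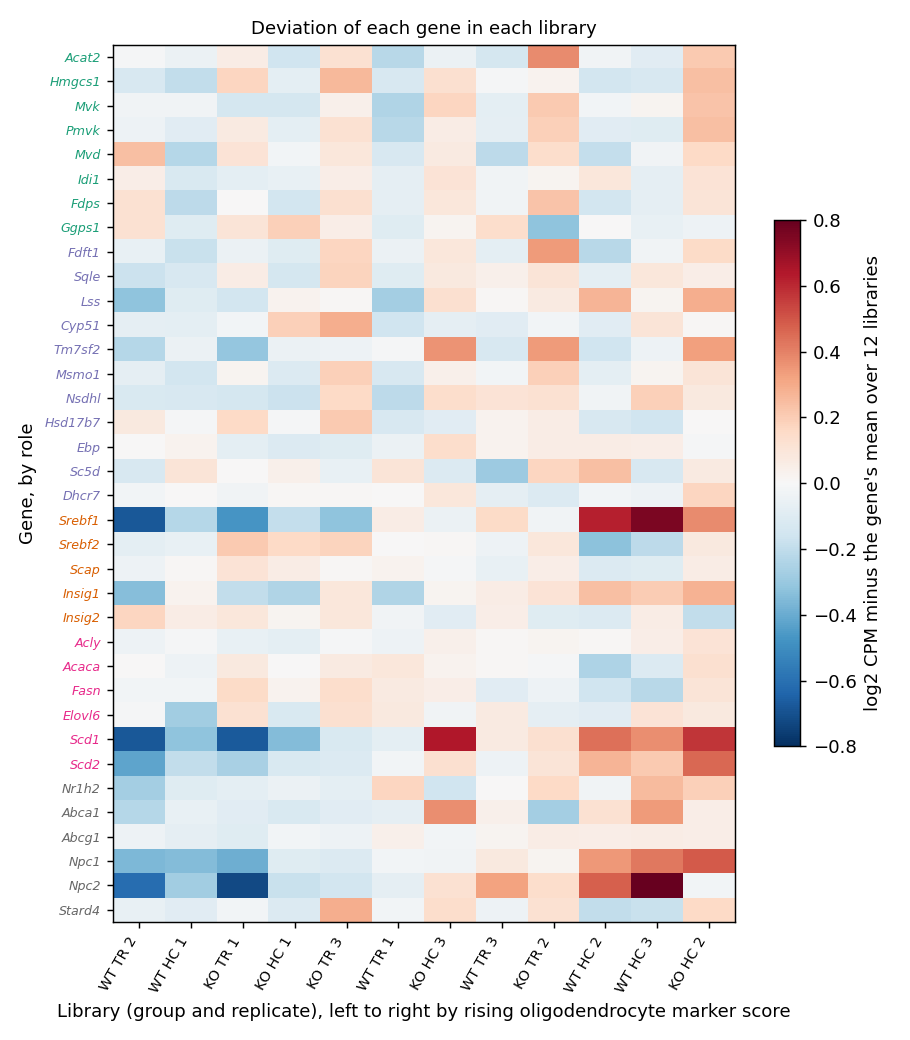
Log2 CPM of each gene minus its mean over 12 libraries, with libraries ordered from the lowest to the highest oligodendrocyte score and colour running from -0.8 (blue) to 0.8 (red). Srebf1, Scd1, Scd2 and Npc1 turn from blue to red along the order, while rows of the mevalonate pathway do not. Npc2 also turns red but stands at -0.02 in the last library, KO house control replicate 2.

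Libraries differed in how many members were highest or lowest there. The same count was not made over all genes tested, so these numbers do not show a trait particular to the members. KO house control replicate 2, the library with the highest oligodendrocyte score, was the highest of the 12 for 10 of 36 members, and KO trained replicate 3 for 7. WT trained replicate 2 was the lowest for 7 members. Among the 19 sterol enzymes, KO house control replicate 2 and KO trained replicate 3 were each the highest for 5, and WT house control replicate 1 and WT trained replicate 1 each the lowest for 5.

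Genes outside the 36 on the same pathways had signs of both kinds. Over both treatments, 10 of 19 other sterol and isoprenoid genes were positive (median 0), 10 of 21 other SREBP and LXR pathway genes (median -0.01) and 18 of 33 other fatty acid and membrane lipid genes (median 0.02), with 0 called by edgeR in any list. At an unadjusted p under 0.05 the lists held 2, 1 and 2 higher genes and 0, 2 and 0 lower ones. Cyp46a1, the neuronal enzyme that hydroxylates cholesterol so that it can leave the brain, had the smallest p: it ran from 106 to 128 CPM in WT and 135 to 183 CPM in KO-labelled libraries, without overlap. Its difference was 0.37 (SE 0.08, 1.30-fold), from 117 ± 8.30 to 151 ± 17.3 CPM (SD, n = 6 each; edgeR adjusted p = 0.0752). Elovl4, an elongase of very long fatty acids, lay at 0.22 (SE 0.06, edgeR adjusted p = 0.126) and Abcg4, a sterol exporter of neurons and glia, at 0.24 (SE 0.08, edgeR adjusted p = 0.202). Mbtps1, which encodes the site-1 protease that cleaves SREBP, lay at -0.11 (SE 0.04, edgeR adjusted p = 0.272). Elovl4, Abcg4 and Mbtps1 overlapped between the genotypes.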

How the data were processed

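Groups were taken from the labels; replicate numbers follow accession order and pair nothing, and p-values measure the spread between these libraries. The members and the gene and marker lists were chosen with earlier results of these data known. Per the labels' protocols, RNA was purified with an RNeasy Mini kit, selected for polyadenylated RNA and made into libraries with an NEBNext Ultra II kit. Tools listed in the submitters' processing notes are HTSeq 0.9.1, TopHat2 2.1.1 and Bowtie2 2.3.4.2, next to DESeq2 1.18.1 and cutadapt 1.18, with mm10 as build. For strandedness of the counting, nothing is given in the sources used here.

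The authors deposited raw counts per gene symbol for each library. They also deposited 4 tables of pairwise comparisons. Per the file headers, their columns are the signal (mean normalized count), the log2 fold change and its standard error, the test score, and the p-value before and after adjustment. Of the counted genes, 27 are not listed in each table.

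The count analysis used edgeR 4.0.16 under R 4.3.3: filterByExpr (minimum count 10, minimum total 15), TMM scaling, and 1 robust quasi-likelihood model with 4 group means over all 12 libraries (8 residual degrees of freedom). Benjamini-Hochberg adjustment covered 15622 genes, with a threshold of 0.05. CPM uses TMM-scaled library sizes, standard errors follow from the F statistic, and an exact permutation of 3 against 3 libraries cannot give a p below 0.1. Marker scores average log2 CPM with a prior count of 1. The test was checked on simulated data. Within-group pairs of libraries held no identical counts (chi-square per degree of freedom 15.6 to 111). Exon lengths are merged GENCODE exons of the same build. Values in every library are given for the 5 members with the smallest unadjusted p in each pairwise and mean comparison, and for Srebf1, Srebf2, Insig1, Insig2, Scd1 and Scd2; from each other pathway list the 3 genes with the smallest p could be named. Alternatives were DESeq2 1.42.0, other scaling and filters, each library left out, the animal-number range as a covariate or its first range alone, and fits of the 6 libraries compared.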

Additional observations from a re-analysis of the deposited data

How the results depend on the processing

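In all, 1232 values were recomputed under 21 alternatives (19 planned and 2 added after seeing the data), and 1209 counted as the same. For a gene this meant the same sign and side of the threshold, and for members called a similar count. For a median it meant a move within the spread between replicates (0.07), whatever the sign. The members' median for training over both genotypes thus ran from -0.04 to 0.03. Genes newly called, and the member counts that hold them, made up 7 stronger values, and 0 were weaker. Beyond these, 2 medians moved by more than 0.07 and 14 gene values changed sign. With DESeq2, 1 member was called higher between the genotypes in house controls and 2 over both treatments. Leaving out each library in turn, the number of members called higher over both treatments ran from 0 to 1, while calls over all genes ran from 5 higher and 3 lower (without WT trained replicate 3) to 203 and 65 (without WT house control replicate 1). The members' median log2 fold change stood at 0.14 for genotype in house controls and at 0.05 for training in WT without the 3 libraries rich in thalamus markers, where the 1 WT house control library that remains is assumed to vary like the other groups. Most sign changes concerned small genotype differences over both treatments: Insig1 ran from -0.04 to 0.08, Scd1 from -0.02 to 0.21 and Scd2 from -0.01 to 0.13 with each library left out. Without the 3 libraries rich in striatum markers, Insig1 stood at -0.07, Scd1 at -0.02, Scd2 at -0.04 and Insig2 at 0.01. Srebf1 stood at 0.10 for genotype and at 0.12 for training in WT (-0.26 and -0.55 over all libraries) without the thalamus-rich libraries; the cause was not tested. Over all alternatives, 24 to 33 of 36 members and 17 to 18 of 19 sterol enzymes were positive for genotype over both treatments. No paired analysis was possible because the labels carry no replicate numbers. Every member had at least 199 counts in every library, so none was near the limit of detection.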
